A study of Homo sapiens with 688 samples.

Results

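The keratin genes described here are 10 members of the keratin family, chosen by symbol: KRT5, KRT6A, KRT7, KRT8, KRT14, KRT16, KRT17, KRT18, KRT19 and KRT81. All 10 had a row in each count table, out of 28430 symbols in the tables of BT20 cells and 23710 in those of LNCaP and U87 cells. Keratins are the intermediate filament proteins of epithelial cells and assemble as pairs of a type I and a type II chain. KRT8 and KRT18 form the pair of simple epithelia, where KRT7 and KRT19 are often found with them. KRT5 and KRT14 form the pair of basal cells in stratified epithelia, while KRT6A, KRT16 and KRT17 are known to be induced in epidermis by injury and stress. KRT81 is a type II keratin of hair.

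PLATE-Seq captures messenger RNA in wells, tags it with a well barcode at the 3′ end and sequences all wells of a plate as 1 pool. BT20, a breast carcinoma line, was treated for 6 h with 1 of 7 drugs or the vehicle DMSO, in 12 wells each. The drugs were bortezomib at 0.044 µM, crizotinib at 7.16 µM, the topoisomerase II poisons idarubicin at 0.084 µM and mitoxantrone at 0.18 µM, albendazole at 0.56 µM, the nucleoside analogue gemcitabine at 0.194 µM, and aprepitant at 2 µM, an antagonist of the neurokinin receptor. Part of the material of the same wells was pooled by 6 into 2 conventional TruSeq libraries per condition, so both library types hold RNA of the same cultures. LNCaP, a prostate carcinoma line, was untreated. The methods describe 1 culture plate of these cells, with each well's lysate divided between PLATE-Seq and a column extraction of total RNA that then also entered PLATE-Seq. The 2 LNCaP tables (A1 and A2, 96 wells each) are therefore read as 2 preparations of the same cultures, and the labels do not say which is which. U87, a glioblastoma line, was treated for 24 h with 1 compound per well on 4 plates, the duplicate plates PS1 A and B and the duplicate plates PS4 A and B, each well holding lysate of 2 culture wells. Inhibitors of histone deacetylases (HDACs), which remove acetyl groups from histones and other proteins, were belinostat (3.5 µM), panobinostat (0.012 µM), vorinostat (1.4 µM) and romidepsin (0.697 µM) on the PS1 plates and PCI-24781 (0.339 µM), pracinostat (0.42 µM), resminostat (4.437 µM) and rocilinostat (1.541 µM), an HDAC6-selective inhibitor, on the PS4 plates. Each plate also held 2 DMSO and 2 untreated wells. BT20 is on a public list of commonly misidentified lines. The paper states that all 3 lines were obtained from ATCC, a supplier that authenticates its lines. No label ties U87 or BT20 wells to separate passages, so p-values measure the spread between wells or pools, which may be technical.

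Total counts were 16881740 to 29068232 in the TruSeq pools and 367848 to 1317952 in the BT20 wells. The median well had 396426 counts on LNCaP plate A1, and 559160, 665572, 765536 and 686978 on U87 plates PS1 A, PS1 B, PS4 A and PS4 B. The 2 belinostat wells (184684 and 207048 counts) and 1 romidepsin well (267876) lay under 0.5 times the median of their plate, so they carry more counting error. Levels are CPM, a count divided by the library's total and scaled to 1000000. The markers fixed for each line were at 264 CPM for EPCAM and 725 CPM for EGFR in BT20, 537 CPM for KLK3 in LNCaP, and 2415 CPM for VIM in U87, against 2.16 CPM for VIM in BT20. The glial markers GFAP and SOX10 were at 0 CPM in U87 DMSO wells. CLDN4, an epithelial marker on the same list, was near 1 CPM in BT20 and 88.2 CPM in LNCaP.

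By the GENCODE annotation lifted to GRCh37, the type II genes lie on chromosome 12: KRT7 from 52626304 to 52645970, KRT81 from 52679697 to 52685318, KRT6A from 52880960 to 52887041, KRT5 from 52908359 to 52914314 and KRT8 from 53290971 to 53343738. KRT18, a type I gene, lies next to KRT8, from 53342655 to 53346690 on the opposite strand. The other type I genes lie on chromosome 17: KRT19 from 39679869 to 39684560, KRT14 from 39738531 to 39743147, KRT16 from 39766030 to 39772151 and KRT17 from 39775694 to 39781094. KRT81 overlaps KRT86 on the opposite strand, and KRT7 overlaps KRT86 on the same strand. Keratins have many near-identical copies, which bears on counts that keep uniquely mapped reads. Of the exact 50-base runs in the last 500 bases of the canonical transcript, 36.4% of those of KRT18 and 22.0% of those of KRT8 were shared with another annotated gene, mostly processed pseudogenes. The share was 17.7% for KRT14, 15.7% for KRT16, which shares runs with KRT17 and pseudogenes, 4.43% for KRT17, 2.22% for KRT7 and 1.33% for KRT19, and 0% for KRT5, KRT6A and KRT81. Counts of KRT18, KRT8, KRT14 and KRT16 are therefore uncertain by what such runs could take away, an effect that was not tested.

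KRT5 and KRT8 matched an entry in the RefSeq promoter table. The KRT5 promoter is shown because KRT5 had the widest range of levels among the lines. It is at chr12:52520345-52520644 on the minus strand of GRCh38.p14 and covers 300 bases around the start, 5′ to 3′, with motif matches in capitals.
KRT5 promoter: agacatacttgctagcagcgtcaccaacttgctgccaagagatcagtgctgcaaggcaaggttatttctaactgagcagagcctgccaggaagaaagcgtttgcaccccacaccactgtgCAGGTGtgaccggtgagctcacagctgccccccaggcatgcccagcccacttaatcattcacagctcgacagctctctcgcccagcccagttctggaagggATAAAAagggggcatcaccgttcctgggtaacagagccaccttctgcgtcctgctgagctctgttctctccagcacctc
Both strands were searched for the letters of 6 motifs. These were TATAAA for the core promoter box that binds the general transcription machinery and ATAAAA for a run much like it. The others were CAGGTG for an E2 box, GGGCGG for a GC box, TGANTCA for AP-1 and GCCNNNGGC for AP-2. The KRT5 window held an E2 box starting 130 bases before the start and an ATAAAA run starting 29 bases before it. Among 35116 promoters of the same length, 20.6% held CAGGTG and 16% held ATAAAA, with 11.5% for TATAAA, 45% for GGGCGG, 7.71% for TGANTCA and 23.2% for GCCNNNGGC. TATAAA and ATAAAA can overlap. ATAAAA and CAGGTG were added to the search after the KRT5 sequence had been seen.

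The first comparison asks how the keratins differ in level between lines. Each of the 12 BT20 DMSO wells carried 4 keratins at 718 CPM or more, KRT7, KRT5, KRT18 and KRT8, LNCaP wells carried mainly KRT18 and some KRT8, and no U87 control well held a keratin at over 38.0 CPM. In the 12 BT20 DMSO wells, KRT7 ranged from 1553 to 2416 CPM (median 2282), KRT5 from 1608 to 2326 (median 2090), KRT18 from 1181 to 1481 (median 1408) and KRT8 from 718 to 1289 (median 1008). All 4 had counts in every well. KRT16 was at 5.16 CPM ± 5.29 (SD, n = 12), with counts in 9 of 12 wells. KRT14, the usual partner of KRT5, had 21 counts in all 12 wells together, of which 13 were in 1 well, and KRT17, KRT81 and KRT19 had 5, 6 and 3 counts in all. KRT6A had no count in the 12 wells, which allows up to 0.282 CPM by a limit of 3 counts over the group. Such limits cover counting error only, since reads carry no molecular identifiers.

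In the 96 LNCaP wells of plate A1, KRT18 ranged from 136 to 270 CPM (median 197) and KRT8 from 2.92 to 71.8 CPM (median 30.7). Both had counts in every well. The count of KRT8 was 0.153 times that of KRT18 over all wells of plate A1 and 0.169 times on plate A2, against 0.735 times in the BT20 DMSO wells, a ratio read on counts of a 3′ tag that the shared runs above could shift for each gene. The lowest of the 12 BT20 wells had a KRT8 to KRT18 ratio of 0.608 and the highest of the 96 LNCaP A1 wells 0.325, so the wells of these lines did not overlap. The ratio also differed between library types, at 1.22 in the BT20 TruSeq DMSO pools. Line and plate cannot be told apart here. KRT19 had 109 counts on plate A1 (2.62 CPM ± 3.51, SD, n = 96) and KRT7 had 77 (1.81 CPM ± 2.54). KRT14 had 15 counts, KRT6A 4, KRT16 2 and KRT81 1. KRT5 and KRT17 had no count in any of the 96 wells, which allows up to 0.0755 CPM over the plate. Plate A2 gave 231 CPM ± 32.4 for KRT18 and 37.5 CPM ± 16.9 for KRT8 (SD, n = 96) and no KRT5 count. It is not an independent set of cultures.

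U87 controls differed between the PS1 and the PS4 plates, so their levels are given for each. In the 4 DMSO wells of the PS1 plates, KRT18 was at 9.97 CPM ± 5.05 (SD, n = 4), KRT7 at 9.51 ± 5.47 and KRT8 at 4.00 ± 2.08, and KRT5, KRT6A, KRT14 and KRT16 had no count. In the 4 DMSO wells of the PS4 plates, KRT7 was at 19.4 CPM ± 3.61, KRT5 at 15.9 ± 7.89, KRT17 at 6.61 ± 3.26, KRT6A at 4.14 ± 2.91 and KRT81 at 3.08 ± 0.807. KRT8, KRT14 and KRT19 had no count there, which allows up to 1.02 CPM, and KRT18 had 1 count.

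**Figure D1:**
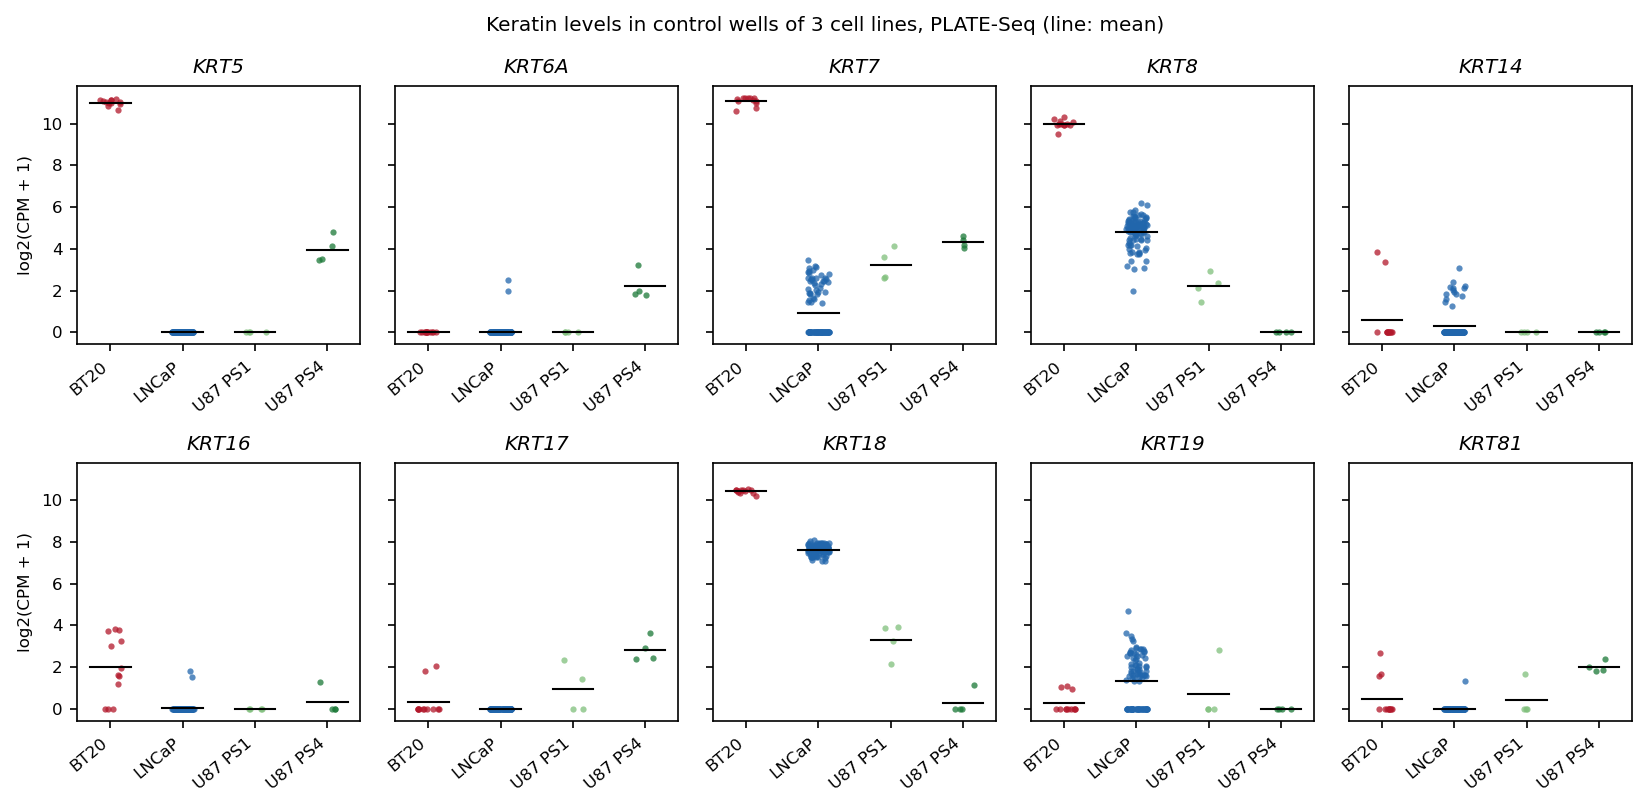
Level of each keratin, as log2(CPM + 1) on the vertical axis, in BT20 DMSO wells (n = 12), untreated LNCaP wells of plate A1 (n = 96) and U87 DMSO wells of the PS1 (n = 4) and PS4 (n = 4) plates. Points are wells and bars are means. BT20 wells stand above all other wells for KRT5, KRT7, KRT8 and KRT18, LNCaP means come second for KRT8 and KRT18, and in U87 the PS4 wells lie above the PS1 wells for KRT5, KRT17 and KRT81 and below them for KRT8 and KRT18.

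In edgeR's quasi-likelihood test on 7930 symbols, 4 of the 10 members passed the filter on low counts (KRT5, KRT7, KRT8 and KRT18). All 4 were higher in BT20 than in LNCaP or U87. KRT5 and KRT7 passed the filter only through the BT20 wells, so the filter itself drew on the difference. Their highest well was at 0 and 10.1 CPM in LNCaP and 26.9 and 23.8 CPM in U87. With no filter both stayed higher in BT20. Members that did not pass were not tested and went both ways. Against LNCaP, KRT19 was lower in BT20 (pooled 0.282 against 2.74 CPM) and KRT16 higher (5.45 against 0.0503 CPM). Of all symbols tested, 41.1% were higher in BT20 than in LNCaP and 34.8% higher in BT20 than in U87 (82.3% and 72.8% passed in either direction), so a call between lines was common. KRT18 was higher in BT20 than in LNCaP by a log2 difference of 3.40 (SE 0.06, Benjamini-Hochberg adjusted p = 5.03e-99), the smallest difference among the 4, and KRT8 by 5.66 (SE 0.09, adjusted p = 5.04e-101). KRT7 was higher by 10.55 (SE 0.11, adjusted p = 1.46e-122). KRT5 was at least 27252-fold higher in BT20 than in LNCaP, with LNCaP set at the limit of 3 counts over the plate. Against U87, the log2 differences were 9.65 for KRT8, 8.80 for KRT18 and 7.71 for KRT7. LNCaP was higher than U87 for KRT18 (5.41, SE 0.19, adjusted p = 7.96e-60) and KRT8 (3.99, SE 0.37, adjusted p = 8.77e-20) and lower for KRT7 (−2.84, SE 0.29, adjusted p = 4.08e-17), where 72.8% of symbols passed. KRT5 was lower in LNCaP than in U87 by the test over all 8 U87 DMSO wells (−5.07, SE 0.60, adjusted p = 1.70e-07), a call carried by the PS4 wells, since LNCaP and the U87 wells of the PS1 plates both held no KRT5 count. With U87 wells of the PS1 or the PS4 plates alone, a choice made after the plate levels were seen, BT20 was higher than U87 by 8.50 or 12.43 for KRT8, 7.66 or 11.68 for KRT18 and 8.39 or 7.31 for KRT7. For KRT5, BT20 was at least 1435-fold higher than the PS1 wells and 132-fold higher than the PS4 wells in pooled CPM. The line, the plate and the sequencing pool cannot be told apart in these comparisons.

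Partners of the keratins were tested in the same fit, where 82.3% of symbols passed between BT20 and LNCaP and 72.8% between BT20 and U87. Of 19 genes of desmosomes and hemidesmosomes and their linkers, 11 were tested, and 10 of them were higher and 1 lower in BT20 than in U87 (median log2 difference 4.72, against −0.04 over all symbols). Between BT20 and LNCaP 7 were higher and 3 lower (median 0.38), and ITGB4, a hemidesmosome integrin chain, was among the higher and DSG2 and DSC2, desmosomal cadherins, among the lower. Of 17 regulators of epithelial genes, 14 were tested. Against U87, 12 were higher and 2, FOSL1 and JUN, lower in BT20 (median 4.68), where 34.8% of all symbols were higher. Against LNCaP, 11 were higher and 2, EHF and OVOL2, lower in BT20 (median 2.15), where 41.1% were higher. VIM, the intermediate filament of mesenchymal cells, was lower in BT20 and in LNCaP than in U87.

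Level in BT20 also depended on the library type. In the 2 TruSeq DMSO pools KRT8 was at 2433 and 2741 CPM, KRT18 at 1990 and 2238, KRT7 at 1545 and 1735, KRT5 at 833 and 892 and KRT19 at 403 and 489. KRT6A followed at 25.6 and 26.1 CPM and KRT16 at 13.8 and 14.1, and KRT17, KRT81 and KRT14 were between 0.711 and 2.01 CPM in each pool. Divided by the length of the canonical transcript, the means were 1496 CPM per kilobase for KRT18, 1450 for KRT8, 1009 for KRT7, 385 for KRT5, 321 for KRT19, 11.2 for KRT6A and 8.41 for KRT16. On that scale the pools of KRT18 and KRT8 overlapped, and the pools of the other neighbours in this order, down to KRT16, did not. KRT19 gave 23175 counts in the 2 TruSeq pools and 3 in the 12 PLATE-Seq DMSO wells, so its pooled level was 445 CPM against 0.282 CPM. Of 2365 symbols at 100 CPM or more in TruSeq, 10 (0.423%) were under 1 CPM in PLATE-Seq, and KRT19 is one of them. KRT6A had 1345 TruSeq counts and none in the PLATE-Seq DMSO wells, at least 92-fold less by the limit of 3 counts. KRT5 went the other way, from 862 CPM in TruSeq to 2057 in PLATE-Seq, and KRT8 fell from 2583 to 1021. KRT19 shares only 1.33% of its end runs with another gene, and what lowers it in PLATE-Seq was not tested. The drug results for KRT19 and KRT6A therefore rest on TruSeq alone. KRT14, KRT17 and KRT81 were not tested with any drug in PLATE-Seq either, and KRT16 was tested there with bortezomib only.

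**Figure D2:**
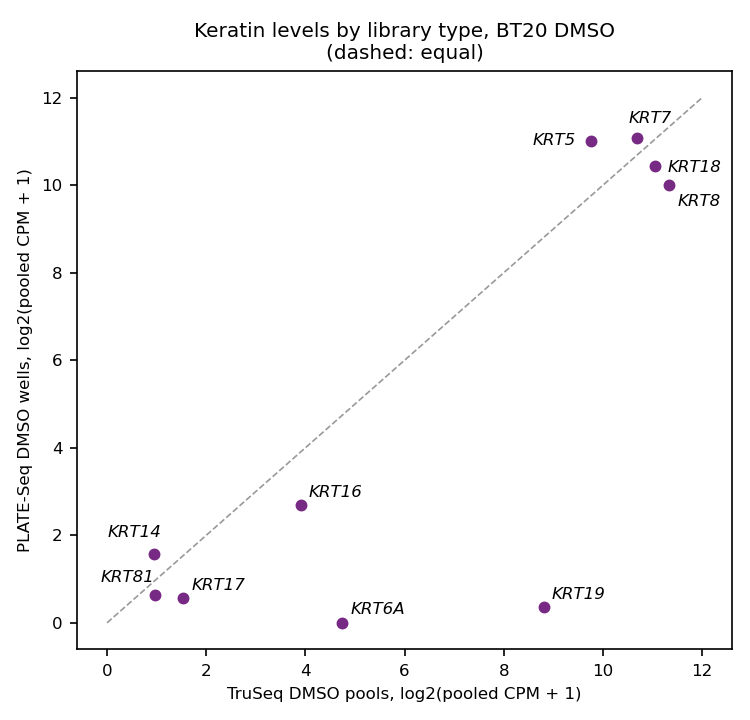
Pooled level of each keratin in BT20 DMSO cells as log2(CPM + 1), in 2 TruSeq pools (horizontal) and 12 PLATE-Seq wells (vertical). The dashed line marks equal levels. KRT19 and KRT6A lie at the bottom, far from the line, while KRT5, KRT7, KRT8 and KRT18 lie near its upper end.

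The drug comparison in BT20 asks which keratins changed within 6 h. All 10 members passed the filter in TruSeq, where 14970 symbols were tested. KRT16 rose with bortezomib, a proteasome inhibitor, crizotinib, a kinase inhibitor, albendazole, a microtubule inhibitor, and idarubicin, a topoisomerase II poison, and KRT19 rose with crizotinib. Other changes that passed were of 0.26 or less on the log2 scale, in KRT5, KRT6A, KRT7 and KRT18. KRT8, KRT14, KRT17 and KRT81 passed with no drug. No member passed with aprepitant or gemcitabine, where 1.82% and 0% of symbols passed. KRT16 was nevertheless above both DMSO pools (13.8 and 14.1 CPM) in every drug pool, the lowest being a mitoxantrone pool at 15.4 CPM. Its log2 fold change was 0.29 with aprepitant (adjusted p = 0.0663) and 0.21 with gemcitabine (adjusted p = 0.611). Whether the DMSO pools, shared by all drugs, lay low for KRT16 was not tested. With 1143 symbols at an unadjusted p under 0.05 for gemcitabine, KRT16, KRT7 and KRT17 were among them.

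With bortezomib 4 of 10 members passed, all higher, where 21.3% of symbols were higher and 40.8% passed in either direction. The KRT16 level was 31.7 and 34.0 CPM in the bortezomib pools and 13.8 and 14.1 CPM in the DMSO pools. The lowest bortezomib pool stood above all 14 other pools, whose highest was a crizotinib pool at 20.3 CPM. The log2 fold change of KRT16 was 1.31 (SE 0.08, adjusted p = 1.15e-15). KRT5 was at 994 and 972 CPM with bortezomib (log2 fold change 0.26, SE 0.04, adjusted p = 6.38e-06) and KRT6A at 28.5 and 29.7 CPM (0.24, SE 0.07, adjusted p = 0.00493), both above their DMSO pools. Without the second bortezomib pool KRT6A did not pass (0.20, adjusted p = 0.0612). KRT7 passed with 0.13 (SE 0.05, adjusted p = 0.0297) though its bortezomib pools, 1752 and 1669 CPM, overlapped the DMSO pools. It did not pass without the first bortezomib pool (0.11, adjusted p = 0.170) or the first DMSO pool (0.05, adjusted p = 0.514). KRT8 and KRT18 had log2 fold changes of 0.02 and 0.05 and did not pass.

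The PLATE-Seq wells hold the same cultures as the pools, so they are no independent support for the TruSeq values. KRT16 passed the filter on low counts only in the bortezomib fit, through the wells where it is high, so the filter itself drew on the difference. It ranged from 3.62 to 36.8 CPM (median 13.1) in the 12 bortezomib wells and from 0 to 13.3 CPM (median 2.49) in the 12 DMSO wells. The groups overlapped, and all 12 bortezomib wells and 9 of the 12 DMSO wells held a count. The log2 fold change was 1.64 (SE 0.45, adjusted p = 0.0157), and 4.91% of 6330 symbols passed, with 2.94% higher. Without the filter, so that the choice of genes did not draw on the bortezomib wells, it was 1.66 (adjusted p = 0.0134). KRT16 was the only call of a member in PLATE-Seq over the 7 drugs. KRT5, KRT7, KRT8 and KRT18 were tested with each drug and passed with none, where 0.1% of symbols passed with albendazole, 0% with aprepitant and gemcitabine, 2.05% with crizotinib, 2.78% with idarubicin and 1.21% with mitoxantrone. KRT5 with crizotinib came nearest, at 1763 CPM ± 174 against 2061 ± 200 in DMSO (SD, n = 12 each, log2 fold change −0.23, SE 0.07, adjusted p = 0.0525).

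With crizotinib 4 members passed in TruSeq, KRT16 and KRT19 higher and KRT5 and KRT6A lower, where 21.6% of symbols were higher, 20.6% lower and 42.2% passed in all. KRT19 was at 662 and 720 CPM with crizotinib and 403 and 489 CPM in DMSO (log2 fold change 0.67, SE 0.11, adjusted p = 0.00100). Both crizotinib pools lay above the other 14 pools, of which the highest, an albendazole pool, had 581 CPM. KRT16 was at 17.9 and 20.3 CPM (0.50, SE 0.09, adjusted p = 2.21e-05). KRT5 was at 765 and 791 CPM (−0.11, SE 0.04, adjusted p = 0.0355) and KRT6A at 21.4 and 22.2 CPM (−0.21, SE 0.08, adjusted p = 0.0300), and both did not pass when DESeq2 replaced edgeR or when only these 4 pools were fitted (adjusted p from 0.0556 to 0.0887). KRT5 also did not pass with RLE scaling (−0.10, adjusted p = 0.0510). KRT6A did not pass without any 1 of these 4 pools (adjusted p from 0.0702 to 0.116), and KRT5 not without either crizotinib pool (0.149 and 0.0609) or the second DMSO pool (0.361). KRT5 in PLATE-Seq had the same sign and did not pass.

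Albendazole moved KRT16 (17.6 and 18.9 CPM, log2 fold change 0.39, SE 0.08, adjusted p = 0.00366) and KRT7 (1889 and 1760 CPM, 0.16, SE 0.05, adjusted p = 0.0309), both higher, where 7% of symbols were higher and 11.3% passed in all. These calls rest on single pools. Without the first albendazole pool the adjusted p was 0.0544 for KRT16 and 0.417 for KRT7, without the second it was 0.0550 for KRT16, and without the first DMSO pool it was 0.0851 and 0.506. Idarubicin moved KRT16 (17.7 and 17.7 CPM, 0.33, SE 0.08, adjusted p = 0.00195) and KRT5 (993 and 967 CPM, 0.17, SE 0.04, adjusted p = 0.00216), both higher, where 18.9% of symbols were higher and 37.4% passed. KRT5 with idarubicin did not pass without the first DMSO pool (0.12, adjusted p = 0.0881). Mitoxantrone, which shares the target of idarubicin, moved KRT18 alone, lower at 2007 and 1918 CPM against 1990 and 2238 CPM in DMSO (−0.15, SE 0.05, adjusted p = 0.0151), where 15.1% of symbols were lower and 30.8% passed. The mitoxantrone and DMSO pools of KRT18 overlapped, and the call ended without the second mitoxantrone pool (−0.12, adjusted p = 0.172) or the second DMSO pool (−0.06, adjusted p = 0.417). KRT16 with mitoxantrone was at 15.9 and 15.4 CPM and did not pass. All TruSeq contrasts share the 2 DMSO pools.

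**Figure D3:**
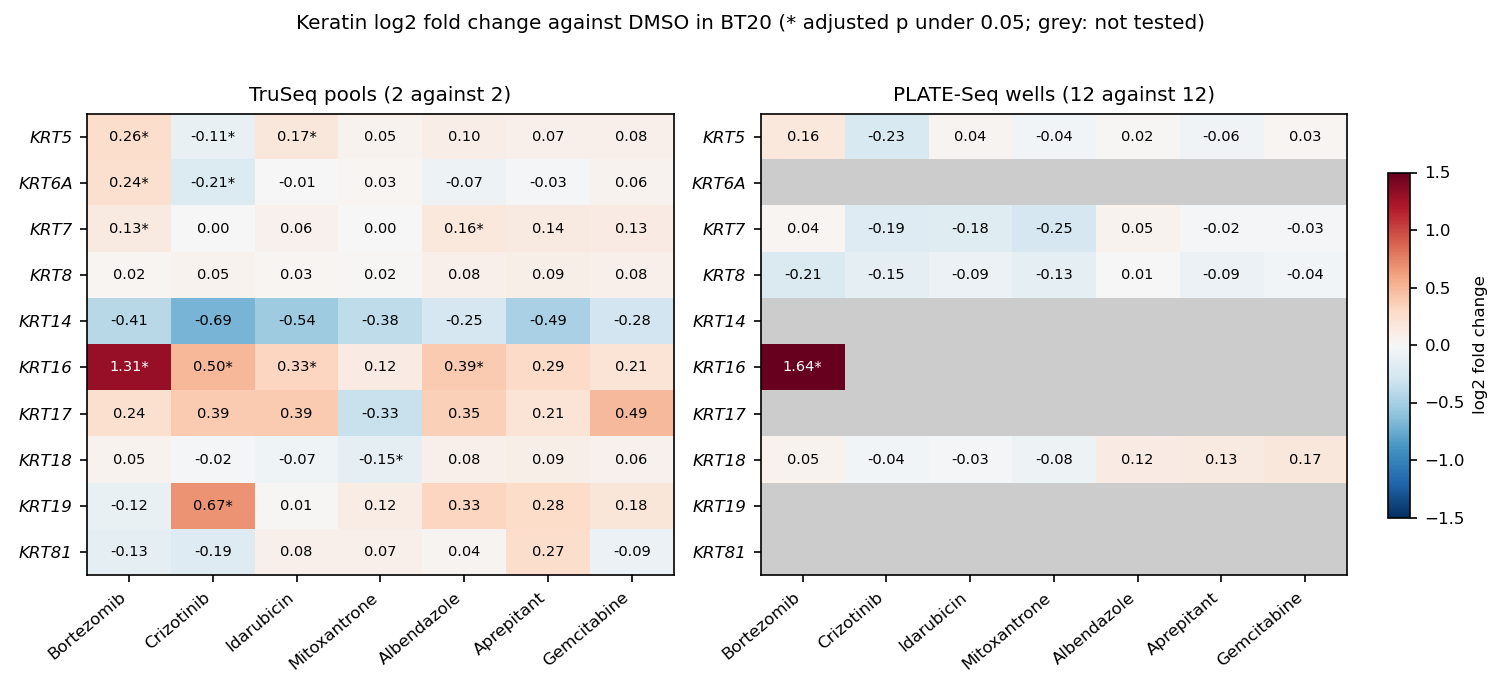
Log2 fold change against DMSO of each keratin (rows) with each drug (columns) in BT20, in TruSeq pools (left) and PLATE-Seq wells (right). Colour runs from −1.5 to 1.5, a star marks an adjusted p under 0.05 and grey marks a gene that did not pass the filter. KRT16 with bortezomib reads 1.31 in TruSeq and 1.64 in PLATE-Seq, where it passed the filter only through the bortezomib wells.

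**Figure D4:**
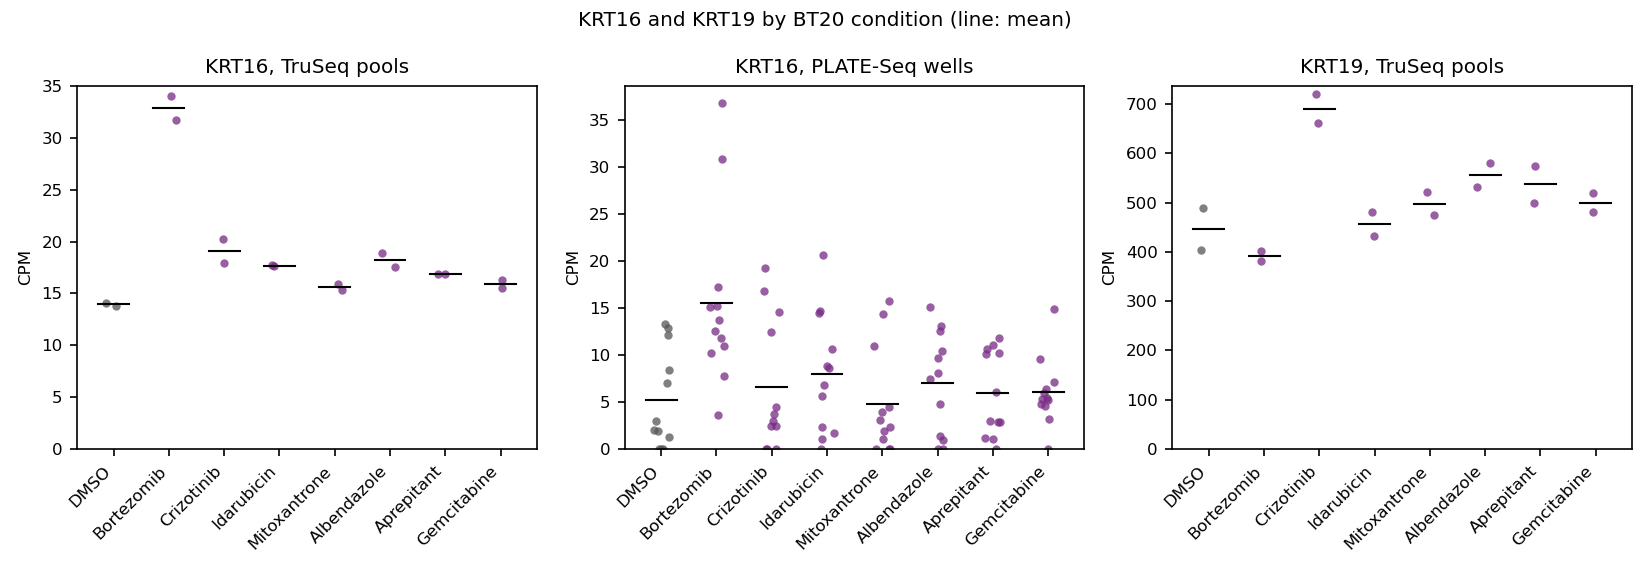
CPM of KRT16 in TruSeq pools (left, 2 per condition) and PLATE-Seq wells (centre, 12 per condition) and of KRT19 in TruSeq pools (right). Points are libraries and bars are means. Bortezomib pools of KRT16 lie at 31.7 and 34.0 CPM and crizotinib pools of KRT19 at 662 and 720 CPM, above all other pools, and PLATE-Seq wells of KRT16 overlap between conditions.

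KRT16, KRT5 and KRT6A had the largest changes over the 7 TruSeq drugs among members that passed for more than 1 drug. The genes with a pattern most like that of KRT16, by the root mean square difference of the 7 log2 fold changes over 14941 non-keratin symbols, were NUPR1 (0.118), ZFP36L1 (0.123) and DLL1 (0.139). NUPR1 had log2 fold changes of 1.09 with bortezomib and 0.44 with crizotinib. For KRT5 they were MAEL (0.0284), INPP5K (0.0358) and PPP5C (0.0373), and for KRT6A PEA15 (0.0301), PITPNA (0.0339) and TTF1 (0.0388). The patterns of KRT5 and KRT6A span less than 0.5 on the log2 scale, so a gene that changes little also has a small difference from them. How many further genes lie nearly as close was not counted. The points share the same DMSO pools.

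Of the other keratin symbols, 13 were tested in TruSeq. KRT15, a type I keratin of basal cells, rose with crizotinib by 1.50 on the log2 scale (SE 0.06, adjusted p = 1.77e-19) in TruSeq and by 1.50 (SE 0.31, adjusted p = 0.00107) in PLATE-Seq. KRT15 fell with bortezomib (−0.69, adjusted p = 2.77e-10) and idarubicin (−0.38, adjusted p = 1.92e-05), where KRT16 was higher. KRT80, a type II epithelial keratin, fell with bortezomib (−0.43, adjusted p = 1.46e-09), crizotinib (−0.70, adjusted p = 1.09e-13), idarubicin (−0.26, adjusted p = 2.40e-05) and mitoxantrone (−0.20, adjusted p = 0.000725). In all, 1 of 13 was higher and 4 lower with bortezomib, where 40.8% of symbols passed, and 2 were higher and 3 lower with crizotinib, where 42.2% passed.

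Regulators of epithelial genes were tested beside the keratins. With bortezomib 4 of 17 were higher and 12 lower in TruSeq, with a median of −0.50 against 0.00 over all symbols, of which 40.8% passed. JUN (log2 fold change 3.19) and FOSL1 (1.96), subunits of the AP-1 factor, and KLF4 (0.96) rose, while TP63 (−2.18), the basal factor, ELF3 (−1.71), KLF5 (−0.91) and EGFR (−0.52) fell. In PLATE-Seq 2 of 11 were higher and 4 lower with bortezomib (4.91% of symbols passed), with JUN at 3.03, FOSL1 at 1.81 and ELF3 at −1.44. With crizotinib, where 42.2% of symbols passed, 8 of 17 were higher and 3 lower, EHF (0.74) and ELF3 (0.27) among the first and FOSL1 (−0.48) and KLF5 (−0.18) among the second. Of 17 desmosome and hemidesmosome genes tested, 3 were higher and 4 lower with bortezomib (median −0.04), and DSP, which links keratins to desmosomes, fell by 0.33. With crizotinib 6 were higher and 4 lower (median 0.03), DSP higher by 0.24. With idarubicin 3 were higher and 7 lower (37.4% of symbols passed), with mitoxantrone 1 and 6 (30.8%), and with albendazole 5 and 1 (11.3%). Of 6 other intermediate filament genes, LMNB1, a nuclear lamin, fell with bortezomib, crizotinib, idarubicin and mitoxantrone.

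In U87 the plates must be set out before the inhibitors. Within a fit of 32 wells (16 HDAC inhibitor, 8 DMSO and 8 untreated wells) over 9339 symbols, with the plate as a term, 4 members passed the filter: KRT5, KRT7, KRT17 and KRT81. This contrast was added after the plate levels were seen. Between the PS4 and the PS1 plates 3 of the 4 differed, all higher on PS4, where 28.4% of symbols passed and 13.9% were higher. KRT5 passed the filter only through PS4 wells, since no PS1 well of the fit held over 5.23 CPM. The filter itself thus drew on the difference, and with no filter KRT5 stayed higher on PS4. KRT5 differed by 4.74 on the log2 scale (SE 0.56, adjusted p = 6.22e-11), KRT81 by 2.28 (SE 0.66, adjusted p = 0.00533) and KRT7 by 0.83 (SE 0.28, adjusted p = 0.0195), while KRT17 gave 1.11 (SE 0.59, adjusted p = 0.159). KRT5 had 3 counts in the 8 control wells of the PS1 plates and 129 in the 8 of the PS4 plates, and KRT6A had 0 and 43. KRT18 had 26 and 4 counts and KRT8 12 and 2. KRT18 and KRT8 did not pass the filter, so the test left out members with fewer counts on PS4. KRT6A was not tested either. The plate sets hold other compounds and other culture plates, so set and source cannot be told apart, and inhibitors are compared with controls through the plate term.

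KRT81 was higher with 6 of the 8 HDAC inhibitors. It passed the filter on low counts only through inhibitor wells, so the filter itself drew on the difference. In DMSO it had 1 count in the 4 PS1 wells (0 to 2.25 CPM) and 9 in the 4 PS4 wells (2.50 to 4.25 CPM), and in untreated wells 0 to 3.52 CPM on PS1 and 4.22 to 10.0 CPM on PS4. Belinostat wells had 8 and 9 counts (43.3 and 43.5 CPM), panobinostat wells 4 and 12 (6.98 and 16.2 CPM) and vorinostat wells 2 and 3 (3.28 and 3.07 CPM). Romidepsin wells had 0 and 6 counts (0 and 16.4 CPM). On the PS4 plates resminostat wells had 21 and 23 counts (23.6 and 30.2 CPM), PCI-24781 wells 17 and 11 (18.4 and 19.6 CPM), pracinostat wells 10 and 9 (18.6 and 18.4 CPM) and rocilinostat wells 8 and 6 (11.6 and 12.1 CPM). Every inhibitor well on PS4 stood above all 8 control wells of these plates, while on PS1 the first romidepsin well and both vorinostat wells did not.

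The log2 fold change of KRT81 against DMSO was 6.07 (SE 0.87, adjusted p = 6.43e-08) with belinostat, where 18.9% of symbols passed, and 4.11 (SE 0.89, adjusted p = 0.00189) with panobinostat, where 2.88% passed. It was 3.20 (SE 0.67, adjusted p = 0.000206) with resminostat (15.3% passed), 2.70 (SE 0.73, adjusted p = 0.0118) with pracinostat (6.65%) and 2.66 (SE 0.70, adjusted p = 0.00732) with PCI-24781 (8.3%). Without its second well panobinostat did not pass (3.69, adjusted p = 0.209), nor without the plate term (2.49, 0.306) or in a fit per plate set (4.09, 0.0510). Pracinostat did not pass without the first (adjusted p = 0.0988) or the second well (0.147), and PCI-24781 not without the first (0.0785) or the second (0.0826). Belinostat and resminostat passed without any 1 well of their contrast. With romidepsin it was 3.67 (SE 1.08, adjusted p = 0.00633), where 30.2% passed. It did not pass without the plate term (2.06, adjusted p = 0.153), and without the second well, which left 1 well at 0 counts, the sign turned (−1.80, adjusted p = 0.779). Vorinostat (2.37, SE 1.10, adjusted p = 0.241) and rocilinostat (1.90, SE 0.77, adjusted p = 0.230) did not pass, where 5.38% and 1.9% of symbols did. For the mean of the 8 inhibitors it was 3.34 (SE 0.53, adjusted p = 3.88e-07), where 28.1% passed, and 2.64 without the second romidepsin well, when the remaining romidepsin well holds 0 counts (adjusted p = 1). On the PS1 plates the DMSO wells hold 1 count in all, so a fold change there depends on the small value the fit assigns to such wells, and the sizes of belinostat and panobinostat are not to be set against those of the PS4 compounds. With no filter on low counts the values were 6.02 for belinostat (adjusted p = 2.59e-09), 4.10 for panobinostat (0.00154), 3.67 for romidepsin (0.00987), 3.20 for resminostat (0.000141), 2.70 for pracinostat (0.0156), 2.68 for PCI-24781 (0.00850) and 3.33 for the mean (4.28e-08). Doses differ between compounds, and their values stand side by side without a comparison. KRT81 levels were ranked among compounds with at least 100000 counts in both wells. Of 91 on PS1, belinostat ranked 1, panobinostat 3, romidepsin 7 and vorinostat 33. Of 89 on PS4, resminostat ranked 1, PCI-24781 5, pracinostat 7 and rocilinostat 21. These ranks rest on the same wells as the tests.

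KRT17 rose with romidepsin. It had 33 and 40 counts in the romidepsin wells (123 and 110 CPM), against 0 to 4.12 CPM in the DMSO and 0 to 5.86 CPM in the untreated wells of the same plates. The log2 fold change was 5.42 (SE 0.70, adjusted p = 1.22e-09), where 30.2% of symbols passed. KRT17 also passed the filter only through inhibitor wells, and without the filter it was 5.42 (adjusted p = 3.14e-13). The first of these wells was among the shallow ones, and its CPM was close to that of the second. Belinostat wells held 4 and 1 KRT17 counts (21.7 and 4.83 CPM) and did not pass (adjusted p = 0.138), panobinostat wells held none and vorinostat wells 1 and 0. On the PS4 plates the 8 inhibitor wells had 2.01 to 16.1 CPM, within or near the 0.966 to 11.3 CPM of the 8 controls. Romidepsin had the highest mean KRT17 level of 91 compounds on the PS1 plates, 116 CPM, followed by belinostat at 13.2 CPM. On the PS4 plates ryuvidine (66.5 and 81.9 CPM) and Bax channel blocker (62.4 and 52.4 CPM) had the highest KRT17 levels of 89 compounds, named here after their values were seen.

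KRT7 had PCI-24781 wells at 32.5 and 69.6 CPM against 15.6 to 23.8 CPM in the 4 DMSO wells of the PS4 plates (log2 fold change 1.53, SE 0.40, adjusted p = 0.00691). The mean of the 8 inhibitors was 0.87 above DMSO (SE 0.28, adjusted p = 0.0128). The untreated PS4 wells were at 25.8 to 38.0 CPM, above all DMSO wells of these plates, and with untreated and DMSO wells as 1 control group neither call held (0.98, adjusted p = 0.125, and 0.29, adjusted p = 0.351). PCI-24781 did not pass without its second well (0.97, adjusted p = 0.449) or without the plate term (1.92, 0.0555), and the mean not without the first belinostat well (0.79, 0.104) or the plate term (0.76, 0.164). KRT5 passed with none of the 8 inhibitors. On PS4 it was at 9.31 to 30.1 CPM in inhibitor wells and 10.0 to 26.9 CPM in controls, and on PS1 at 0 to 5.23 CPM in inhibitor wells. KRT8 and KRT18 did not pass the filter. On the PS1 plates KRT8 was at 3.28 to 16.2 CPM in the 8 inhibitor wells, 1.74 to 6.74 CPM in the 4 DMSO wells and 0 to 3.41 CPM in the 4 untreated wells. KRT18 was at 2.74 to 7.47, 3.48 to 14.4 and 0 to 5.10 CPM in these wells, and the groups of both genes overlapped as a whole. Both panobinostat wells of KRT8 (10.5 and 10.8 CPM, 6 and 8 counts) stood above all 8 control wells of the PS1 plates. Belinostat, romidepsin and vorinostat each had a KRT8 well within the control range. Of 91 compounds on PS1, KRT8 ranked 2 with panobinostat, 3 with belinostat, 6 with romidepsin and 20 with vorinostat, on few counts and with no test. KRT6A, KRT14, KRT16 and KRT19 were at 6.98 CPM or less in every inhibitor well.

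**Figure D5:**
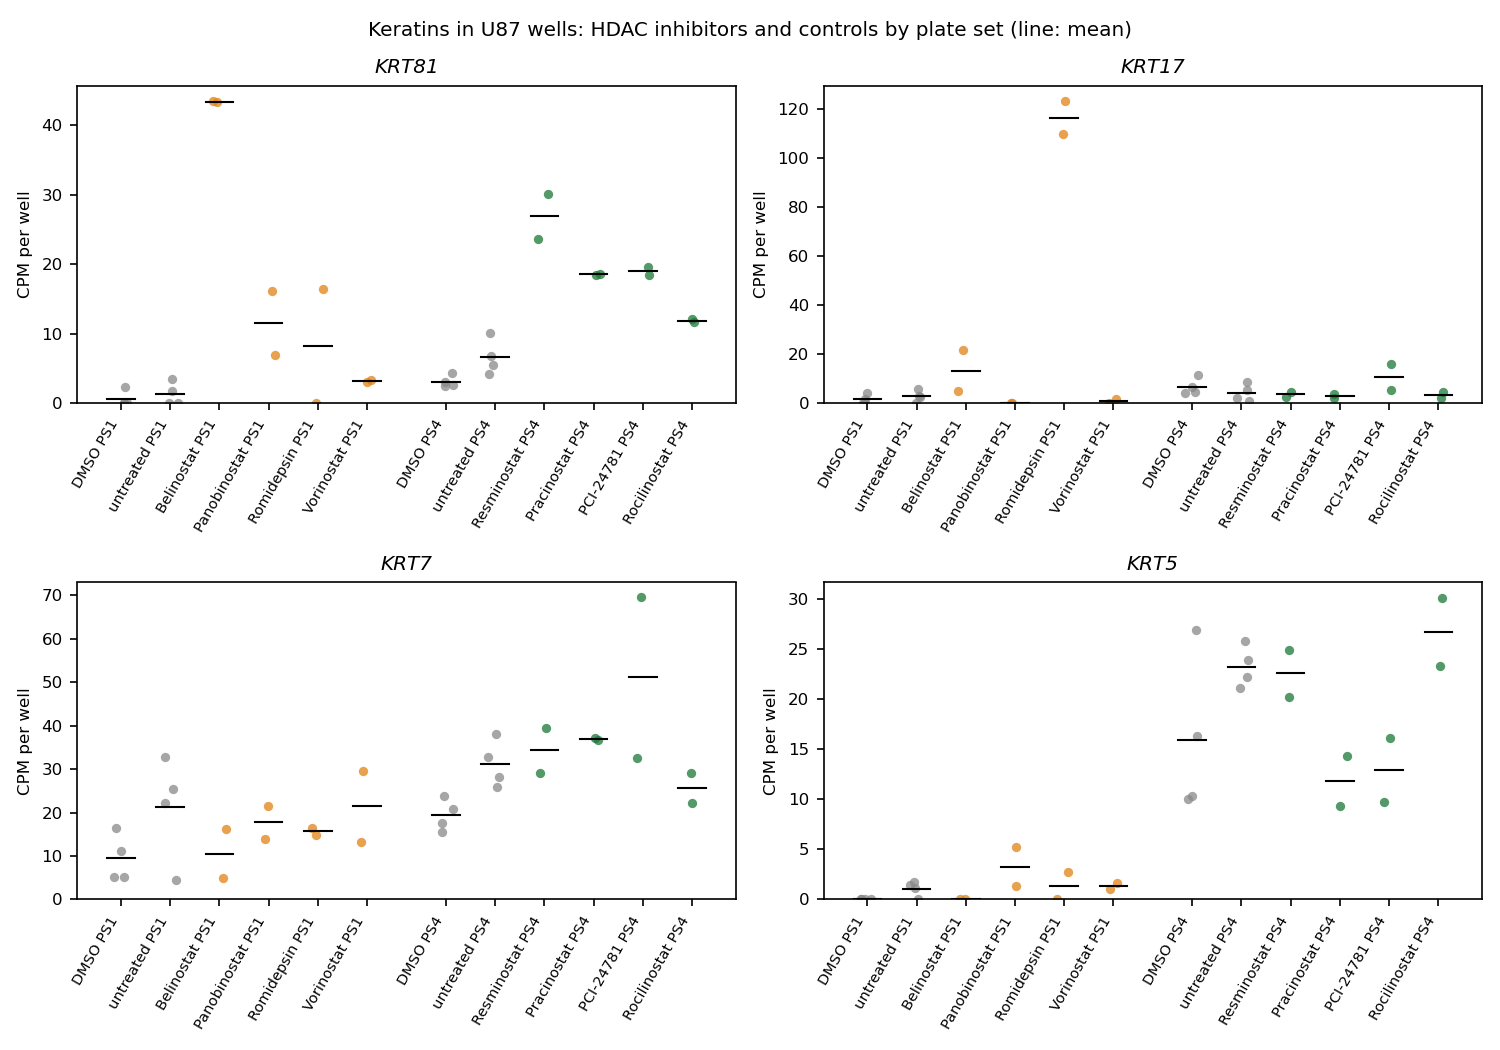
CPM of KRT81, KRT17, KRT7 and KRT5 in single U87 wells, grouped by HDAC inhibitor, DMSO and untreated wells, separately for the PS1 plates (left in each panel) and the PS4 plates (right). Points are wells and bars are means of 2 inhibitor or 4 control wells. KRT81 reaches 43.3 and 43.5 CPM with belinostat and 23.6 and 30.2 CPM with resminostat, and KRT17 reaches 123 and 110 CPM with romidepsin.

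With the mean of the 8 inhibitors, where 28.1% of symbols passed, none of the 5 desmosome and hemidesmosome genes tested passed, and of 8 regulators tested KLF5 (1.00) and JUN (0.29) were higher and EGFR (−0.44) and FOSL1 (−0.26) lower. JUP, plakoglobin, was higher with belinostat (18.9% of symbols passed), resminostat (15.3%) and romidepsin (30.2%). DST was also higher with resminostat and PLEC with romidepsin, while DSG2 was lower with romidepsin. The median of the 5 genes was −0.28 with belinostat, 0.28 with resminostat and −0.82 with romidepsin. LMNA, a nuclear lamin, was higher with belinostat and romidepsin, where VIM was lower, and VIM was higher with resminostat. The median log2 fold change over all symbols was −0.16 with belinostat and −0.12 with romidepsin, the compounds with shallow wells, and between −0.06 and −0.01 with the other 6.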

How the data were processed

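PLATE-Seq libraries came from 96 BT20 wells, 2 preparations of 96 LNCaP wells and 384 U87 wells, and TruSeq libraries from 16 BT20 pools. The deposited tables hold raw read counts per gene symbol, which the authors made for PLATE-Seq with BWA on hg19 transcripts, keeping uniquely mapped reads on the correct strand. How the TruSeq reads were counted is not given in the sources used here, and reads carry no molecular identifiers. The 92 spike-in rows were left out. No 2 columns were identical.

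CPM is a count divided by the library's total and scaled to 1000000. Tests used edgeR 4.0.16 (quasi-likelihood, TMM scaling, its filter on low counts, Benjamini-Hochberg adjusted p under 0.05) in R 4.3.3, with 1 fit per drug against DMSO for PLATE-Seq, 1 fit over the 16 pools for TruSeq, 1 fit over 32 U87 wells with a plate term, and 1 fit over the 3 lines on 23183 shared symbols. Alternatives were DESeq2 1.42.0, RLE scaling, no filter, left-out libraries, other controls and a replicate block. Replicate numbers follow accession order and only name libraries. On the BT20 plate, a drug well and the DMSO well of the same run did not deviate together (mean correlation 0.00543 over 84 pairs of wells). On simulated counts, edgeR recovered 90% of TruSeq genes changed by 1 on the log2 scale with bortezomib (of 14883 genes), 100% in PLATE-Seq (6470) and 15.2% for resminostat in U87 (8465), where 88.6% were recovered at 2. The simulation gave all genes of a library set the same spread, which was fixed by hand and not estimated from these data. Its rates therefore do not apply to single keratins, whose spread can be larger. The members and gene lists were chosen with earlier results of these data known. The text names all 10 members, list genes with calls and the 3 symbols nearest in pattern to each of 3 members.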

Additional observations from a re-analysis of the deposited data

Results flagged for a closer look

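In groups of 8 U87 control wells, 6 of 18 keratin and group pairs held a well that stood apart from the others by Dixon's 95% criterion. The criterion is made for normal values of 1 population, and it flags any group with only 1 well above 0. The number flagged therefore has no chance rate to be set against. In DMSO wells these were KRT6A, with 1 well at 8.50 CPM and the next at 2.97 CPM, KRT19, with 1 well at 6.19 CPM and all others at 0, and KRT16, with 1 well at 1.49 CPM and all others at 0. In untreated wells they were KRT7, with 1 well at 4.54 CPM below the next at 22.3 CPM, KRT8, with 1 well at 3.41 CPM above the next at 1.17 CPM, and KRT14, with 1 well at 1.06 CPM and all others at 0. Outside KRT7, the well that stood apart held 1 to 6 counts. The 8 wells lie on 4 plates whose levels differ.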

How the results depend on the processing

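Counts of keratin calls are given here where they moved by over 1.5 times. DESeq2 gave 1 call (KRT5) with crizotinib in PLATE-Seq and 2 with crizotinib in TruSeq, as did the fit of only 4 pools (2). With 1 pool left out, TruSeq calls ranged from 0 to 5 for albendazole, 0 to 1 for aprepitant, 2 to 3 for crizotinib and 0 to 1 for mitoxantrone. In U87 without the plate term (no replicate block), PCI-24781 had 1 call, panobinostat 0, romidepsin 1 and the mean of inhibitors 1. With untreated and DMSO wells as 1 control group, PCI-24781 and the mean had 1 each, and in a fit per plate set panobinostat had 0. With 1 well left out, calls ranged from 0 to 2 for PCI-24781, 0 to 1 for panobinostat and pracinostat, and 1 to 2 for romidepsin and the mean. With no filter, 5 keratins differed between the plate sets, and 9 between BT20 and LNCaP, 8 between BT20 and U87 and 8 between LNCaP and U87. With 1 well left out KRT81 with romidepsin ranged from −1.80, without the second romidepsin well, to 4.42, and DESeq2 gave no adjusted p for KRT81 with panobinostat. KRT16 with bortezomib stayed higher and passed under all alternatives, from 1.25 to 1.37 in TruSeq with a pool left out and from 1.57 to 1.84 in PLATE-Seq. The replicate block over runs of 8 wells gave 1 keratin call with bortezomib and 0 with the other 6 drugs in PLATE-Seq, the same counts as without it. The alternatives with low-depth U87 wells left out and with the U87 wells of 1 plate set were chosen after seeing the data. The cause of these changes was not tested. In U87, KRT81 held 0 to 23 counts per inhibitor or control well. In simulated data with 2 resminostat wells and the same fixed spread for all genes, 15.2% of changes of 1 on the log2 scale were recovered.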

Other observations

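Among the compounds on the U87 plates that are no HDAC inhibitors, several had higher keratin levels in both wells than any control well of the same plates. These were chosen after their values were seen, and each has 1 well per plate with no test. On the PS4 plates telatinib, a kinase inhibitor, had KRT5 at 112 and 149 CPM (91 and 100 counts) and KRT6A at 44.4 and 43.1 CPM, ranking 1 of 89 compounds for both genes. NNC 05-2090 hydrochloride had KRT5 at 126 and 99.7 CPM, and aminacrine had KRT5 at 97.9 and 93.4 CPM and KRT81 at 19.3 and 22.1 CPM. On the PS1 plates alectinib had KRT5 at 34.4 and 10.7 CPM (21 and 9 counts), the highest mean of 91 compounds, and cabazitaxel had KRT81 at 15.0 and 9.07 CPM, between belinostat and panobinostat.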
